A study of Homo sapiens with 10 samples.

Results

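The U87 library taken at 24 h of dibutyryl cAMP was compared with the libraries that flank it in time, at 12 h and 48 h. For each gene the departure of the 24 h library is its log2(FPKM + 1) minus the mean of the 12 h and 48 h values, so a departure of 1 log2 unit is a 2-fold difference on that scale. FPKM, fragments scaled to transcript length and to library size, is a level that can be compared between genes. Of the 20379 genes in the table, 11303 averaged 1 FPKM or more over the 5 U87 libraries and were used. These are 3 libraries of the 10 in the series, and the 0 h and 6 h libraries of U87 are given beside them.

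The series followed U87 and DBTRG-05MG, established human glioblastoma lines, through a course of 1 mM dibutyryl cAMP sampled at 0, 6, 12, 24 and 48 h. Each line and time is 1 library, so no value below has a replicate error, and every comparison is a size without a test. The untreated state is represented by the 0 h library of each line alone, and time in culture and time in drug cannot be told apart. All U87 libraries come from the same line and carry the same agent and dose, and the labels name no separate cultures.

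Dibutyryl cAMP enters cells and activates protein kinase A, which phosphorylates CREB and so raises transcription of genes with cAMP response elements. Raised cAMP slows division in many glioma cultures and can shift them towards a more differentiated, glia-like form. Dividing cells transcribe DNA replication genes at the start of S phase, under E2F factors, and mitotic genes later, under the FOXM1 and B-MYB complexes that bind at cell cycle homology regions. Genes for detoxifying and thiol enzymes are driven by the factor NRF2 through antioxidant response elements.

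The 24 h library stood further from its neighbours than did any other inner library of the series. In it, 177 genes were at least 2-fold higher than the mean of the neighbours, 1.57% of those tested, and 306 were at least 2-fold lower, 2.71%. At 12 h in U87, 62 genes were higher (0.549%) and 44 lower (0.389%), and at 6 h, 139 were higher (1.23%) and 106 lower (0.938%). At 24 h in DBTRG-05MG, 45 of 12424 genes were higher (0.362%) and 33 lower (0.266%). The neighbours overlap between these comparisons, since the U87 24 h library is itself a neighbour of the 12 h library. Spacing differs too, since 24 h is set between 12 and 48 h. The 12 h libraries are set between 6 and 24 h, and the 6 h libraries between 0 and 12 h. Only DBTRG-05MG at 24 h has the same spacing as U87 at 24 h.

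A departure can come from 1 neighbour, so genes outside the range of both were counted as well. At 24 h in U87, 75 genes were at least 2-fold above both neighbours (0.664%) and 152 at least 2-fold below both (1.34%). The same counts were 22 (0.195%) and 13 (0.115%) at 12 h in U87, and 12 (0.0966%) and 21 (0.169%) at 24 h in DBTRG-05MG. Against the 12 h library alone, 189 genes were at least 2-fold higher (1.67%) and 408 lower (3.61%), whereas against the 48 h library alone the counts were 581 (5.14%) and 622 (5.5%). The balance of the directions depends on scaling. Higher genes were 36.6% of all those past 2-fold with the values as deposited, 48.1% after median centring and 50.6% when totals were made equal without the noncoding RNA BCYRN1. At the filter, IFI27 was the last gene inside, with a mean of 1.0002 FPKM, and GDPGP1 the first outside, with 0.99904 FPKM.

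**Figure D1:**
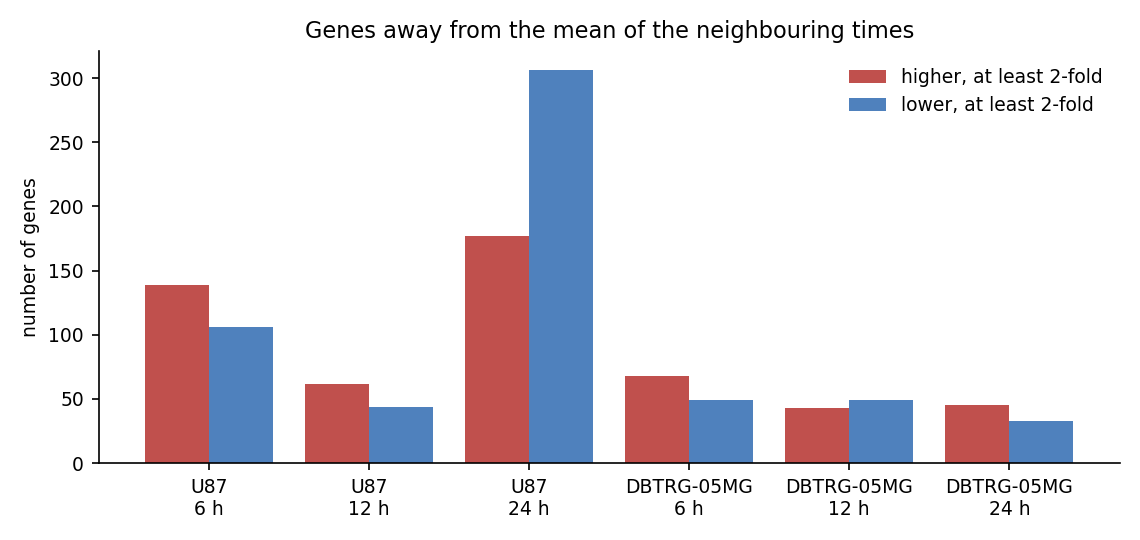
Bars give the number of genes (vertical axis) at least 2-fold higher or lower than the mean of the neighbouring times, for each inner library of the series (horizontal axis, line and time). The U87 24 h library has 177 higher and 306 lower genes, and the next largest sums are at 6 h in U87, with 139 and 106.

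The 24 h library also differed in what it detected. It had 5106 genes listed at 0, against 4446 to 4699 in the other U87 libraries, and 10873 genes at 1 FPKM or more, against 11199 to 11330. By the size of the smallest steps in the values, the other U87 libraries were 102.7 to 109.1% as deep. BCYRN1 took 10.29% of its total, within the 7.385 to 13.31% of the other U87 libraries. Genes that mark DBTRG-05MG summed to 1.68 FPKM in it, 0.0657% of their level in that line, and to 0.0486 to 0.0789% in the other U87 libraries. Read counts were not used here, so absolute depth is unknown, and a value of 0 means not detectable at this depth.

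Departures moved with base composition and transcript length. Genes were cut into 10 equal groups by GC content: the lowest group, up to 38.69%, had a median departure of -0.30, while the highest, from 61.82%, had a median of 0.06. The shortest of 10 such groups by transcript length, up to 1346 bases, had a median of -0.29, against -0.01 for those of 2800 to 3357 bases. At 12 h in U87 the medians of the GC groups ran from 0.01 to 0.10, and at 6 h they ran the opposite way, from 0.10 in the lowest group to -0.19 in the highest. Genes at least 2-fold higher at 24 h had a median GC content of 57.5% and a median length of 2340 bases. Genes at least 2-fold lower had 45.4% and 1416 bases, against 48.4% and 3357 bases over all genes with annotation. Loci of small RNAs, which a poly(A) library samples poorly, added to both sides and more to the lower. Of 179 loci of small nucleolar, small Cajal body and microRNAs, 21 were at least 2-fold higher and 63 lower. Over all genes the shares were 1.57% and 2.71%. The part that composition and length play in any gene below was not tested, so values relative to genes of like GC content and length are given beside the main ones. On that scale 200 of 10481 genes were at least 2-fold higher and 188 lower.

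**Figure D2:**
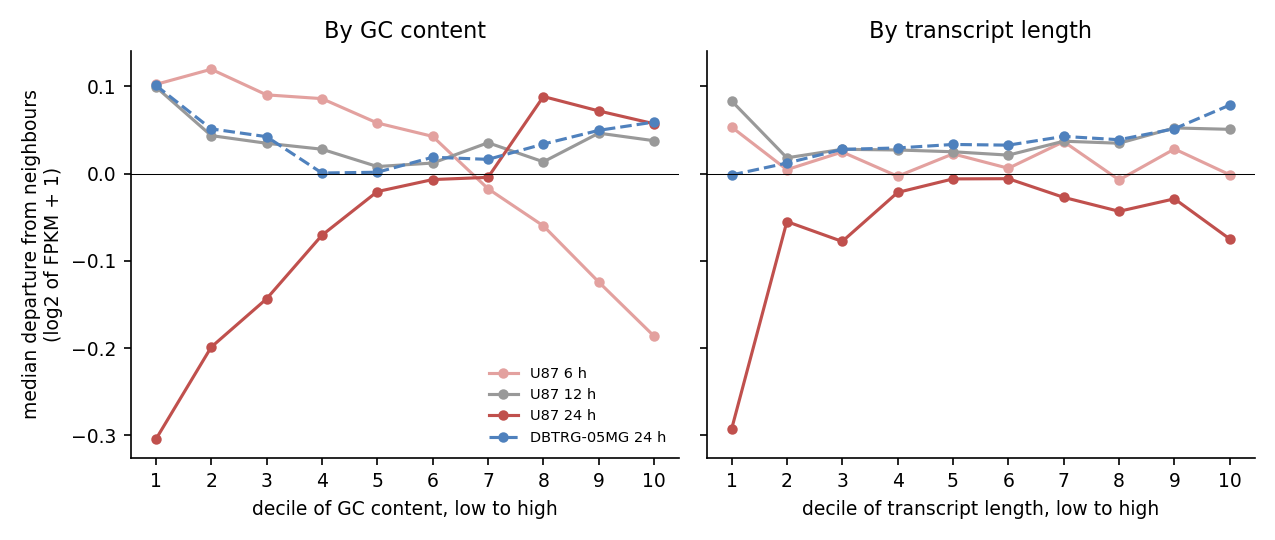
Median departure from the neighbouring times (vertical axis, log2 of FPKM + 1) for 10 equal groups of genes ranked by GC content (left) and by transcript length (right). In U87 at 24 h the medians run from -0.30 at the lowest GC content to 0.06 at the highest and stand at -0.29 for the shortest transcripts.

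Genes of G2 and mitosis stood above both flanking times at 24 h. Of 51 such genes tested, 42 were above both neighbours and 2 below both, against 27% and 37.6% of all genes. Of them, 8 were at least 2-fold higher and 0 at least 2-fold lower, against 1.57% and 2.71% of all genes. Their median departure was 0.57, and 0.68 relative to genes of like GC content and length, while the median of all genes was -0.06. The antigen gene MKI67, a standard marker of cycling cells, is given with its values in time order, as are all genes below: 53.7, 38.2, 21.1, 57.4 and 12.3 FPKM at 0, 6, 12, 24 and 48 h. The 24 h level was the highest of the 5 and close to that at 0 h, and the departure was 1.76. In bulk RNA, more cycling cells and more message per cell cannot be told apart. PLK1, the kinase that drives entry into and passage through mitosis, stood at 118, 93.6, 83.1, 166 and 48.2 FPKM, a departure of 1.38. MYBL2, which encodes the B-MYB factor, read 41.5, 23.8, 22.1, 70.6 and 26.5 FPKM, a departure of 1.51. For both genes the 24 h library was again the highest.

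The outer kinetochore gene SPC25 ran 22.8, 18.2, 12.7, 28.1 and 7.10 FPKM, with a departure of 1.46. FOXM1, the forkhead factor of the G2 programme, ran 50.4, 29.4, 26.6, 69.0 and 27.7 FPKM, with a departure of 1.31. Not all of the list moved this way. CCNB1, the mitotic cyclin, stood at 116, 104, 54.0, 55.0 and 58.1 FPKM, level from 12 to 48 h, and the checkpoint gene BUB3 was lowest at 24 h, at 60.2, 61.2, 42.9, 23.9 and 43.0 FPKM. CDK1, the kinase that CCNB1 activates, was at 27.6, 21.3, 9.44, 11.9 and 25.9 FPKM, between its neighbours. In DBTRG-05MG the median departure of the list at 24 h was 0.62, but 4 of its 51 genes stood above both neighbours there, against 28.6% of all genes, and 0 stood below both, against 16.3%: levels at 24 h lay below those at 12 h and above those at 48 h. Taking the 12 h or the 48 h library alone as reference, or any other setting tried, left the U87 median between 0.48 and 0.68.

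Promoters of the mitotic list were searched for the letters of the cell cycle homology region. MKI67 and PLK1 are shown as the largest departures among members with these letters in the 150 bases before the start. MYBL2 and SPC25, with departures of 1.51 and 1.46, departed more than PLK1 but were not among those members. The cell cycle homology region was searched as TTTGAA on both strands in the 250 bases before each start site, and it was present in 22 of 43 mitotic promoters (51.2%), 1 of 44 replication promoters (2.27%) and 739 of all 9023 promoters matched (8.19%). CCAAT, searched in the same way, was in 74.4% of the mitotic and 35.5% of all promoters, but also in 60.0% of NRF2 target, 57.7% of stress response and 52.3% of replication promoters, lists that did not all go the same way. Sequences are the 150 bases before the start site from RefSeq (GRCh38.p14), written 5′ to 3′ along the gene, with TTTGAA in capitals. MKI67 lies on the minus strand, at chr10:128126424-128126573, and PLK1 on the plus strand, at chr16:23678739-23678888. In both, a copy ends 24 bases before the start, and MKI67 has a further copy upstream of it. The shares describe genes listed for their known role in mitosis, and members that departed were not compared with members that did not. A match of letters is not a measured site.
MKI67: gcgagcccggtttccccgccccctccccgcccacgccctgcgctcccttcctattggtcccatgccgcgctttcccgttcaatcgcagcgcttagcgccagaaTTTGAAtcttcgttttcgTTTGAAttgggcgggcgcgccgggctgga
PLK1: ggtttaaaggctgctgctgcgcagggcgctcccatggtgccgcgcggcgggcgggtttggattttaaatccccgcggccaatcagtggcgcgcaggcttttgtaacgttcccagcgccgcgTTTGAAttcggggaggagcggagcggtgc

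Genes of DNA replication and the G1/S transition formed a second group above their neighbours. Of 52 tested, 31 were above both and 2 below both, against 27% and 37.6% of all genes. Past 2-fold, 4 were higher and 0 lower, against 1.57% and 2.71% of all genes. The median departure was 0.52 (0.54 relative to genes of like GC content and length). CHAF1B, a subunit of the histone chaperone that loads new chromatin, stood at 12.5, 5.93, 11.1, 23.2 and 6.72 FPKM, a departure of 1.32. CDC6, which loads the replicative helicase at origins, stood at 18.3, 10.1, 19.4, 30.9 and 7.83 FPKM, a departure of 1.25. Both were highest at 24 h, and CDC6 at 12 h was nearer to 24 h than to 48 h. The helicase cofactors GINS2, at 21.8, 14.1, 18.7, 27.6 and 8.10 FPKM, and CDC45, at 17.7, 8.94, 10.4, 18.5 and 6.80 FPKM, also peaked there. RPA3, a subunit of the protein that coats single-stranded DNA, was lowest at 24 h, at 11.5, 10.9, 7.83, 4.95 and 12.9 FPKM.

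The size of the replication departure rests mostly on the 48 h library. Against the 12 h library alone the median was 0.15, where all genes had -0.13, and against the 48 h library alone it was 0.89. In DBTRG-05MG at 24 h the list's median departure was -0.09 and 0 of 52 genes stood above both neighbours, against 28.6% of all genes. The list's medians from 0 h fell there from 0.18 at 12 h to -0.79 at 24 h and -1.60 at 48 h. H2AFX, the histone variant phosphorylated at DNA breaks, is made with and without poly(A) and stood at 34.2, 27.1, 18.4, 59.4 and 17.6 FPKM in U87, a departure of 1.67. Over the 13 histone genes tested, 2 were at least 2-fold higher and 1 lower, against 1.57% and 2.71% of all genes. Their median of -0.25 became 0.0029 relative to genes of like GC content and length.

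**Figure D3:**
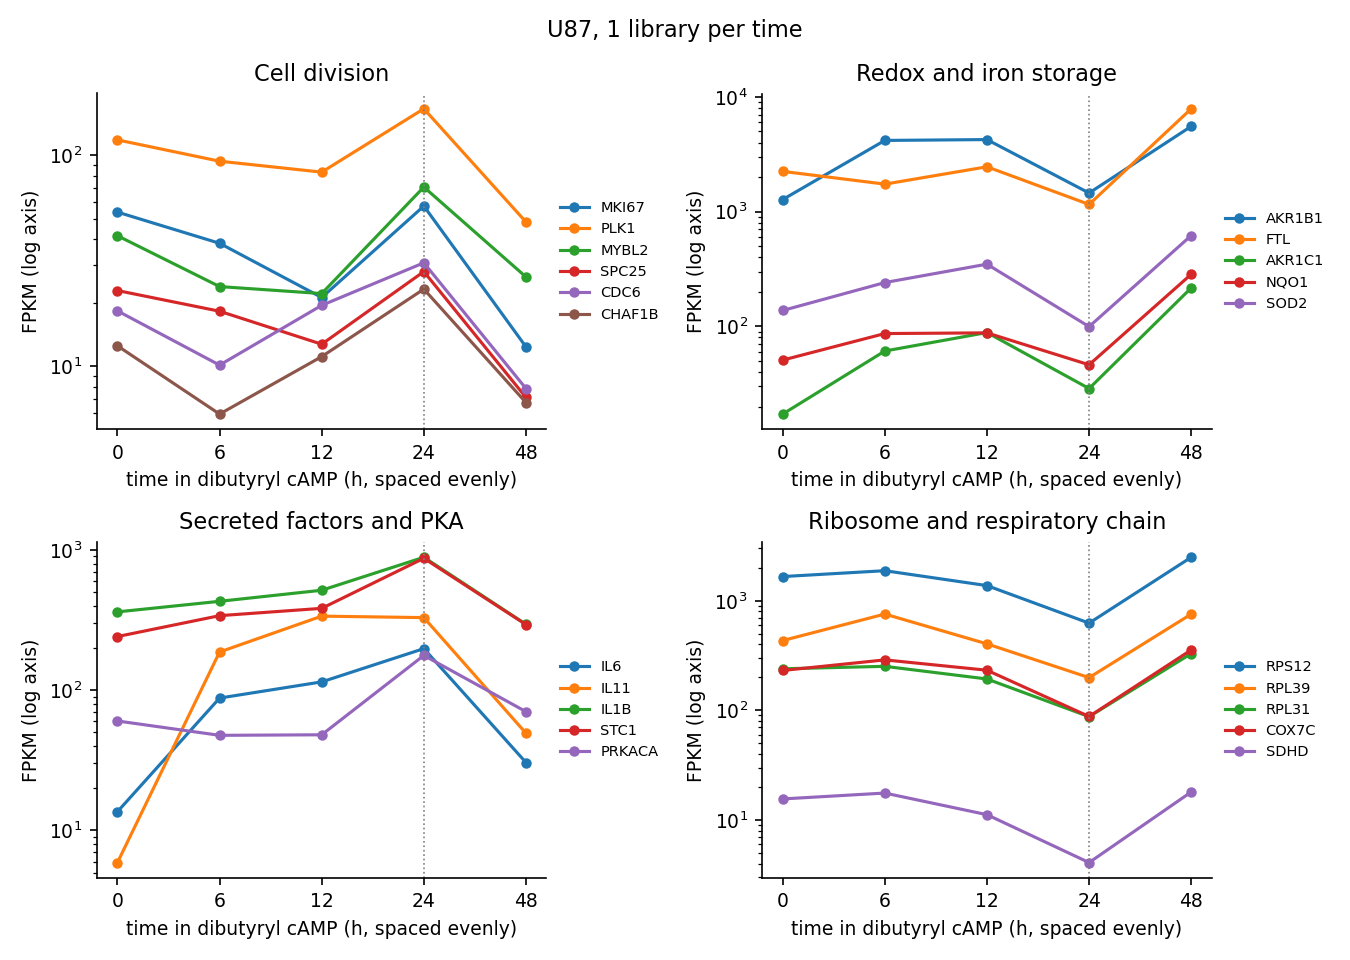
Level of single genes in the 5 U87 libraries (vertical axes, FPKM on a log axis) against time in dibutyryl cAMP (horizontal axes, spaced evenly); each point is 1 library and the dotted line marks 24 h. Cell division genes peak at 24 h, with MKI67 at 57.4 FPKM, and redox, ribosomal and respiratory chain genes are lowest there or return to near their 0 h level, with NQO1 at 46.2 FPKM.

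Targets of NRF2 and other redox genes were the list furthest below the flanking times. Of 28 tested, 22 stood below both neighbours and 0 above both, against 37.6% and 27% of all genes. Past 2-fold, 13 were lower and 0 higher, against 2.71% and 1.57% of all genes. The median departure was -0.94, and -0.81 relative to genes of like GC content and length. Aldo-keto reductases, which reduce reactive carbonyls, were among the furthest, with AKR1C1 the furthest of all. AKR1C1 stood at 17.2, 60.9, 88.3, 28.7 and 216 FPKM, a departure of -2.23. AKR1B1, the aldose reductase, stood at 1275, 4179.8, 4251, 1454 and 5546 FPKM, a departure of -1.74. Both lay several-fold above their 0 h level at 6, 12 and 48 h and returned towards it at 24 h alone. Reads of AKR1C1 and AKR1B1 can be shared with close paralogues, so their split among family members is uncertain.

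NQO1, a quinone reductase that is widely used as an NRF2 readout, stood at 50.8, 86.5, 87.7, 46.2 and 285 FPKM, a departure of -1.75. TXNRD1, which keeps thioredoxin reduced, stood at 135, 129, 91.0, 62.5 and 434 FPKM, a departure of -1.66. The 24 h library was the lowest of the 5 for both genes, and 48 h the highest by far. FTL, the light chain of the iron store ferritin, stood at 2245, 1738, 2462, 1156 and 7892 FPKM, a departure of -1.93, although processed pseudogenes make its reads uncertain too. The heavy chain FTH1, at 3199.5, 2792, 3181, 3416 and 6567 FPKM, lay between its neighbours at 24 h, above 12 h and below 48 h. FTL lay below both. GCLM, the modifier subunit of the enzyme that limits glutathione synthesis, stood at 10.9, 10.9, 10.4, 5.48 and 12.1 FPKM, a departure of -0.92. The glutathione reductase GSR, at 34.6, 32.4, 32.5, 46.4 and 47.7 FPKM, was 1 of the 3 members with a departure above 0.

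The depth of the NRF2 departure also rests on the reference. Its median was -0.52 against the 12 h library alone, where all genes had -0.13, and -1.27 against the 48 h library alone. It stayed negative in every setting tried. In DBTRG-05MG the list's median lay 0.60 above 0 h at 24 h and 1.24 above it at 48 h. The median departure there at 24 h was -0.09, and 0 genes were 2-fold lower, against 0.266% of all genes. The mitochondrial superoxide dismutase SOD2, an NF-kappaB target outside this list, stood at 138, 241, 348, 99.4 and 619 FPKM in U87, a departure of -2.21. Like AKR1C1 and AKR1B1, and unlike the list's median at 6 and 12 h, SOD2 rose at 6, 12 and 48 h. At 24 h it lay below 0 h.

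TXNRD1 and GCLM are shown as the lowest departures among members with the antioxidant response element core in the 150 bases before the start. Their departures were -1.66 and -0.92. The core was searched as TGACNNNGC on both strands, and 4 of 20 promoters of the list held it within 250 bases before the start (20%), against 1118 of all 9023 (12.4%). Lists that were not low at 24 h held it about as often, with 18.6% of mitotic, 20.5% of replication and 23.1% of cAMP target promoters. Sequences are again the 150 bases before the start from RefSeq (GRCh38.p14), 5′ to 3′ along the gene, with the core in capitals, which in GCLM lies on the other strand. TXNRD1 is on the plus strand at chr12:104215629-104215778, and GCLM on the minus strand at chr1:93909431-93909580.
TXNRD1: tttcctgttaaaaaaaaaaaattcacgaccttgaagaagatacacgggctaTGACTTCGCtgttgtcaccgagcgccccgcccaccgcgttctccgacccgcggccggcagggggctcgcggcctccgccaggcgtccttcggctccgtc
GCLM: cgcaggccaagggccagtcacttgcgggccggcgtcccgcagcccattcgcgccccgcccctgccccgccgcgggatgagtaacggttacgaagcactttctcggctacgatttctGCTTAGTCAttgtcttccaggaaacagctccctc

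Messages of the translation and respiration machinery were lower at 24 h than at either side. Of 77 cytosolic ribosomal protein genes, 58 stood below both neighbours and 12 above both, against 37.6% and 27% of all genes. Past 2-fold, 17 were lower and 0 higher, against 2.71% and 1.57% of all genes. Their median departure was -0.56, and -0.45 relative to genes of like GC content and length. The median length of these transcripts was 1171 bases, against 3357 over all genes with annotation. RPS12, of the small subunit, stood at 1662, 1880.3, 1375, 625 and 2493 FPKM, a departure of -1.56. RPL39, of the large subunit, stood at 433, 756, 404, 199 and 755 FPKM, a departure of -1.47, and RPL31, of the same subunit, at 239, 252, 193, 87.6 and 329 FPKM, a departure of -1.52. All were lowest at 24 h. Other subunits went the other way: RPL28 stood at 305, 278, 383, 824 and 451 FPKM and RPS26 at 852, 769, 885, 1614 and 824 FPKM, with 24 h the highest of the 5. Ribosomal protein genes have many processed pseudogenes, so the assignment of their reads is uncertain. Mitochondrial ribosomal proteins, 72 genes, had a median of -0.11 that became 0.02 relative to genes of like GC content and length.

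Of 53 nuclear genes of the respiratory chain, 44 stood below both neighbours and 5 above both, against 37.6% and 27% of all genes. Past 2-fold, 8 were lower and 0 higher, against 2.71% and 1.57% of all genes, and the median was -0.46. Relative to genes of like GC content and length the median was -0.42, over the 43 with annotation. COX7C, a small subunit of cytochrome c oxidase, stood at 231, 289, 232, 87.9 and 356 FPKM, a departure of -1.70. SDHD, a membrane anchor of complex II, stood at 15.6, 17.6, 11.2, 4.09 and 18.0 FPKM, a departure of -1.58. Each was lowest at 24 h. Genes encoded by mitochondrial DNA were not analysed here. In DBTRG-05MG at 24 h the median departures of the ribosomal and respiratory lists were -0.11 and -0.08.

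Host genes of small nucleolar RNAs and other abundant noncoding RNAs were low with them. Of 21 tested, 20 had a departure below 0, as did 55.5% of all genes. Below both neighbours were 12, against 37.6% of all genes, and 4 were at least 2-fold lower, against 2.71%. The median was -0.69 (-0.62 relative to genes of like GC content and length). GAS5, a host gene whose spliced transcript is degraded when it is translated, stood at 43.0, 47.0, 48.1, 21.5 and 68.4 FPKM, a departure of -1.38. ZFAS1, another such host, stood at 70.6, 93.2, 91.7, 37.3 and 101 FPKM, a departure of -1.35, and SNHG8 stood at 41.3, 49.7, 33.6, 16.1 and 66.5 FPKM, a departure of -1.49. The 1 member with a departure above 0 was SNHG6, at 298, 282, 274, 531 and 285 FPKM. The list's median in DBTRG-05MG at 24 h was 0.28.

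Genes of the integrated stress response and amino acid supply were mostly lower at 24 h. Of 32 tested, 17 stood below both neighbours and 4 above both, against 37.6% and 27% of all genes. Past 2-fold, 5 were lower and 0 higher, against 2.71% and 1.57% of all genes, and the median was -0.31. It was -0.38 relative to genes of like GC content and length, and -0.60 against the 48 h library alone. ASNS, asparagine synthetase, stood at 15.8, 21.8, 35.1, 11.5 and 33.7 FPKM, a departure of -1.51. PSAT1, of the serine pathway, stood at 16.2, 16.7, 29.6, 8.42 and 32.4 FPKM, a departure of -1.76. SLC3A2, the shared chain of several amino acid transporters, stood at 19.4, 46.7, 45.4, 15.8 and 42.0 FPKM, a departure of -1.41. All were below their 0 h level at 24 h alone. ATF4, the factor that drives the response, was at 135, 116, 104, 152 and 142 FPKM and was not low at the level of its message. The list's median in DBTRG-05MG at 24 h was 0.35, with 20 of 32 genes above both neighbours, against 28.6% of all genes.

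Secreted factors and growth-related early genes gave some of the highest single values of the 24 h library. IL6, a cytokine that many gliomas secrete, stood at 13.6, 87.8, 115, 198 and 30.5 FPKM, a departure of 1.72. IL1B, the inflammatory cytokine interleukin-1 beta, stood at 362, 430.2, 516, 887 and 295 FPKM, a departure of 1.18. STC1, a secreted glycoprotein hormone that cAMP induces, stood at 241, 339.8, 383, 872 and 294 FPKM, a departure of 1.38. Each was highest at 24 h. IL11, of the same family as IL6, stood at 5.90, 187, 337, 329 and 49.3 FPKM: its departure of 1.34 came from the 48 h library, since 12 h and 24 h were level.

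The cytokine list as a whole did not stand on 1 side. Of its 29 genes tested, 4 were at least 2-fold higher and 3 lower, against 1.57% and 2.71% of all genes. Its median of -0.03 turned to 0.03 after median centring and 0.11 relative to genes of like GC content and length. FGF2, a heparin-binding growth factor, was low at 24 h, at 7.10, 27.4, 13.1, 3.62 and 18.1 FPKM, a departure of -1.83. IL33, an alarmin, stood at 1.06, 17.4, 31.7, 4.08 and 4.04 FPKM, high at 6 and 12 h and low at 24 and 48 h, so its departure of -1.34 came from the 12 h library.

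Early response genes were on the higher side, with a median of 0.22. Past 2-fold, 5 of 33 were higher and 1 lower, against 1.57% and 2.71% of all genes. EGR1, the zinc finger factor induced by growth signals and cAMP, stood at 8.47, 9.91, 13.6, 32.5 and 5.16 FPKM, a departure of 1.82. FOSL1, a component of AP-1, stood at 571, 186, 346, 622 and 114 FPKM, a departure of 1.64, high at 0 h and 24 h. DUSP6, a phosphatase induced by ERK signalling as its brake, stood at 25.8, 20.01, 25.8, 34.8 and 8.61 FPKM, a departure of 1.16. SPRY4, a feedback inhibitor of the same cascade, stood at 6.11, 6.71, 9.41, 12.2 and 1.91 FPKM, a departure of 1.26. For FOSL1, DUSP6 and SPRY4 the 48 h library, the lowest of the 5, made most of the departure.

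Listed targets of cAMP and CREB did not depart as a group. Of 29 tested, 4 were at least 2-fold higher and 3 lower, against 1.57% and 2.71% of all genes. The median was 0.05, and -0.10 against the 12 h library alone, where all genes had -0.13. CITED2, a co-regulator induced by cAMP, stood at 30.9, 34.4, 40.9, 117 and 34.7 FPKM, a departure of 1.61, high at 24 h alone. NR4A2, an orphan nuclear receptor that CREB induces, stood at 0.643, 9.48, 9.04, 12.1 and 1.93 FPKM, highest at 24 h. PDE4B, a phosphodiesterase that degrades cAMP, stood at 7.52, 36.3, 34.2, 22.1 and 26.0 FPKM, below both neighbours at 24 h and above 0 h throughout. DIO2, the deiodinase that cAMP induces, stood at 3.68, 155, 51.7, 15.1 and 6.83 FPKM, on a course downwards from 6 h. The median of the whole list relative to 0 h was 0.60, 0.67, 0.71 and 0.44 at 6, 12, 24 and 48 h.

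PRKACA, the catalytic subunit of protein kinase A through which dibutyryl cAMP acts, was among the 15 genes furthest above both neighbours, at 60.3, 47.6, 48.1, 177 and 70.2 FPKM, a departure of 1.59. In DBTRG-05MG its departure was 0.05. Other genes at that end were HSPB6, a small heat shock protein that protein kinase A phosphorylates, at 3.31, 3.50, 3.01, 15.4 and 4.34 FPKM, and NRGN, a calmodulin-binding protein, at 31.9, 19.7, 17.0, 61.7 and 16.8 FPKM. ATP6V0C, the proton-conducting ring of the vacuolar ATPase, stood at 102, 106, 122, 347 and 121 FPKM, and PLP2, a membrane protein of the endoplasmic reticulum, at 446, 335, 495, 1058 and 260.0 FPKM. Each was highest at 24 h. HSPB6, NRGN and ATP6V0C are of 62.8, 64.7 and 63.6% GC, well above the median of all genes.

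CCNK, the cyclin partner of transcription elongation kinases, at 48.9, 47.6, 37.4, 109 and 38.4 FPKM, and BSCL2, the lipid droplet protein seipin, at 2.70, 3.45, 4.14, 13.6 and 3.90 FPKM, also led the higher side. EVI2B, a membrane protein best known in blood cells, had the lowest GC content of the 15, 36.3%, and stood at 2.87, 6.00, 3.80, 11.4 and 2.30 FPKM. Its departure of 1.64 was 2.00 relative to genes of like GC content and length. CITED2 and MKI67, at 47.9 and 48.3% GC, were also not above the median of all genes.

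At the lower end, P2RX6P, a pseudogene of a purine receptor, was listed at 0 at 24 h, after 5.78 FPKM at 12 h and before 5.51 FPKM at 48 h. TMED7, a cargo receptor of the early secretory path, stood at 19.95, 23.5, 19.5, 3.73 and 27.1 FPKM, a departure of -2.34 (-2.11 relative to genes of like GC content and length). S100A6, a calcium-binding protein abundant in glioma lines, stood at 1220.1, 1685, 1521, 434 and 1833 FPKM, a departure of -1.94. CPA4, a secreted carboxypeptidase, stood at 24.99, 48.5, 70.1, 9.49 and 27.5 FPKM, a departure of -2.10. Each was lowest at 24 h. COMMD6, a COMM domain protein, at 52.9, 55.9, 52.1, 15.03 and 72.4 FPKM, GABARAPL2, which helps build autophagosomes, at 49.8, 55.7, 48.9, 16.1 and 75.2 FPKM, and SCOC, a Golgi coiled-coil protein, at 11.5, 12.2, 9.54, 2.33 and 13.8 FPKM, had the same form.

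Several genes departed mainly through a high level at 48 h. TXNIP, the thioredoxin-binding inhibitor of glucose uptake, stood at 225, 28.3, 42.6, 50.7 and 1148 FPKM: its departure of -2.11 is the size of the 48 h level, and 24 h lay 0.25 above 12 h. INSIG1, the brake on sterol synthesis, stood at 54.5, 35.8, 29.1, 36.3 and 319 FPKM, a departure of -1.39 with 24 h above 12 h. GDF15, a stress-induced hormone, stood at 17.5, 16.0, 17.3, 21.04 and 136 FPKM, a departure of -1.19 of the same kind. PTGS2, the inducible cyclooxygenase, stood at 11.4, 61.8, 63.7, 37.6 and 162 FPKM, with 24 h the lowest of the treated libraries.

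Other lists had few members past 2-fold, where all genes had 1.57% higher and 2.71% lower. Sterol synthesis genes had 0 of 31 at least 2-fold higher and 2 lower, with a median of -0.22 that was -0.39 against the 48 h library alone and -0.105 for genes averaging 5 FPKM or more. Collagen and matrix genes had 0 and 0 of 29 past 2-fold, yet 17 stood below both neighbours, against 37.6% of all genes. Their median was -0.23 (-0.30 relative to genes of like GC content and length). Lysosome genes likewise had 20 of 33 below both neighbours, against the same 37.6%, with a median of -0.20 (-0.21 on the adjusted scale). Glycolysis genes had 0 and 0 of 24 and a median of 0.09, and -0.15 against the 12 h library alone, where all genes had -0.13. Within that list PKM, pyruvate kinase, stood at 1744, 1543, 2120.1, 3459.7 and 1478 FPKM and LDHB, a lactate dehydrogenase subunit, at 166, 170.3, 129.6, 80.8 and 165 FPKM, so single members went opposite ways. Interferon-stimulated genes, unfolded protein response genes and TGF-beta targets had medians of -0.03, -0.03 and -0.02. The median of p53 targets was -0.04.

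**Figure D4:**
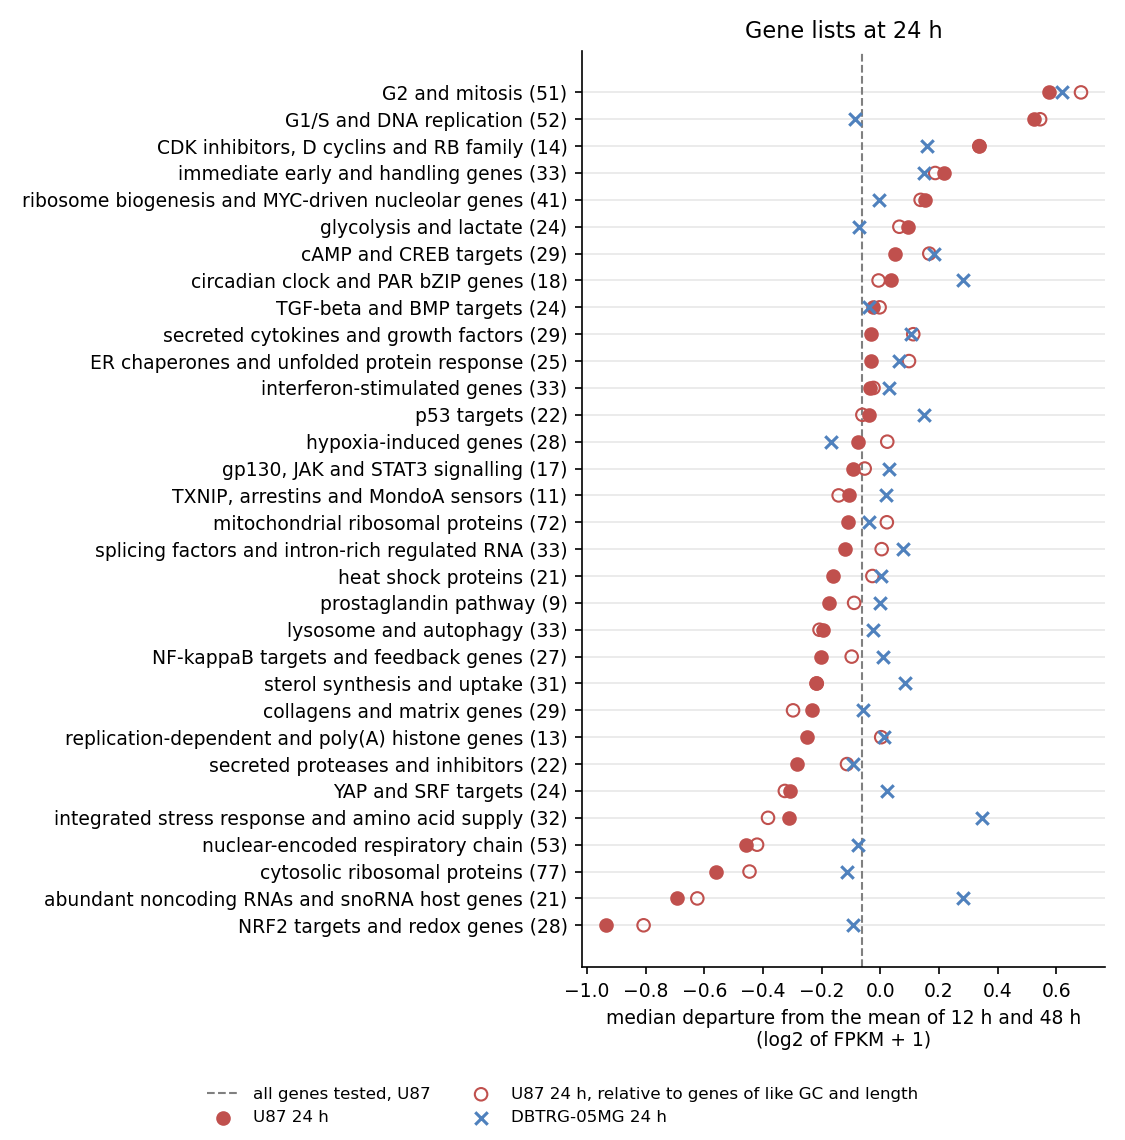
Median departure at 24 h from the mean of 12 h and 48 h (horizontal axis, log2 of FPKM + 1) for each gene list, with the number of genes tested in U87 in brackets. Filled circles are U87, open circles U87 relative to genes of like GC content and length, crosses DBTRG-05MG and the dashed line the median of all U87 genes, -0.06; the division lists stand at 0.57 and 0.52 and the NRF2 list at -0.94.

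Whether the 24 h library resembles the untreated one was read as the root mean square log2 difference over all 11303 genes. The 24 h library lay 0.580 from 0 h, 0.651 from 6 h, 0.515 from 12 h and 0.644 from 48 h. The 12 h library was therefore its nearest and the 0 h library the next. The same order of the nearest pair held in each of the 10 settings tried, among them the adjustment for GC content and length, which gave 0.516 to 0 h and 0.476 to 12 h. The distance of 0 h from the other libraries depends on the adjustment. As deposited, 24 h was the library furthest from 0 h: the distances were 0.538, 0.525, 0.580 and 0.560 at 6, 12, 24 and 48 h, with 644, 646, 817 and 795 genes at least 2-fold apart. With each library adjusted for GC content and length, the distances from 0 h were 0.529, 0.518, 0.516 and 0.526, nearly equal, and the genes 2-fold apart were fewest at 24 h, at 554, 577, 515 and 607. From the 24 h library as deposited, 597 genes were at least 2-fold from 12 h, 817 from 0 h, 1203 from 48 h and 1303 from 6 h. Against 0 h, 264 genes were at least 2-fold higher at 24 h (2.34%) and 553 lower (4.89%). For scale, the 6 h and 12 h libraries of U87 lay 0.369 apart, and the 12 h and 24 h libraries of DBTRG-05MG 0.366.

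**Figure D5:**
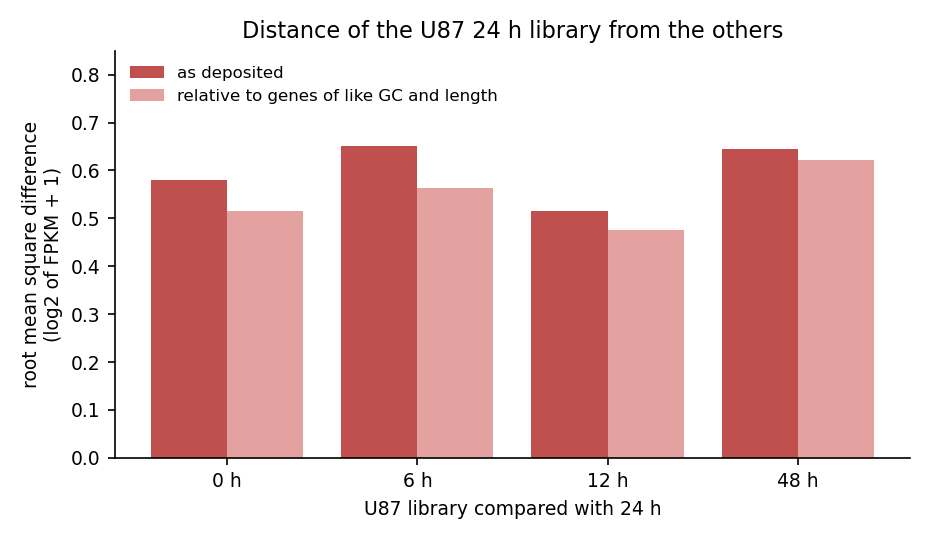
Root mean square difference of the U87 24 h library from each other U87 library (vertical axis, log2 of FPKM + 1; horizontal axis, time of the other library), as deposited and relative to genes of like GC content and length. The shortest bars are those of the 12 h library, 0.515 and 0.476, and the next those of 0 h, 0.580 and 0.516.

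Genes chosen without the 24 h library were then placed between 0 h and the time that chose them; all these comparisons share the 0 h library. Of 529 genes at least 2-fold lower at 48 h than at 0 h (4.68%), 335 lay nearer to 0 h than to 48 h at 24 h, or 63.3%, and 333 did so at 12 h, or 62.9%. With each library adjusted for GC content and length and the genes chosen again, the shares were 72.5% and 61.7%. Of 266 genes at least 2-fold higher at 48 h (2.35%), 168 (63.2%) were nearer to 0 h at 24 h and 146 (54.9%) at 12 h. After adjustment these shares were 56.2% and 53.4%. In DBTRG-05MG at 24 h the shares were 47.5% of the 650 genes lower at 48 h (5.23%) and 21.1% of the 593 higher (4.77%). Of 343 genes at least 2-fold higher at 6 h than at 0 h in U87 (3.03%), 65.0% were nearer to 0 h at 24 h, against 21% at 12 h and 73.5% at 48 h. Of 301 genes at least 2-fold lower at 6 h (2.66%), the shares were 62.1%, 32.6% and 62.5%. For these early genes the 24 h shares were nearer to those of 48 h than to those of 12 h. After adjustment the genes higher at 6 h had shares of 52.8% at 24 h, 16.8% at 12 h and 66.1% at 48 h, and the genes lower at 6 h had 63.7%, 29.8% and 65.6%.

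The programmes differed in how far they stood from 0 h, where the median of all genes was -0.02, -0.07, -0.18 and -0.18 at 6, 12, 24 and 48 h. The mitotic list had medians of -0.40, -1.03, -0.54 and -1.11 from 0 h at 6, 12, 24 and 48 h, so 24 h lay between 6 h and 12 h. The replication list had -0.56, -0.31, -0.14 and -1.13, nearest to 0 h at 24 h, where 42 of 52 genes were within 1.5-fold of 0 h against 72.1% of all genes. The NRF2 list had 0.05, 0.08, -0.18 and 0.97, so that at 24 h it stood where all genes did (0.04 relative to genes of like GC content and length) and at 48 h above them. Cytosolic ribosomal proteins had 0.04, -0.15, -0.51 and 0.15, and respiratory chain genes 0.15, -0.04, -0.51 and 0.20. For both of these lists the 24 h library was the furthest from 0 h, and the medians relative to genes of like GC content and length were -0.37 and -0.32.

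Values of the departing genes from 0 h are given as a description only, since the genes were chosen by their 24 h values. Of the 177 higher genes, 51 were within 1.5-fold of 0 h at 24 h and 67 were at least 2-fold above 0 h, with a median of 0.83 above it. Of the 306 lower genes, 58 were within 1.5-fold of 0 h and 169 at least 2-fold below it, with a median of -1.07. Among all genes at 24 h, 72.1% were within 1.5-fold of 0 h, 2.34% at least 2-fold above it and 4.89% below it. MKI67 and AKR1B1 lay 0.09 and 0.19 from 0 h at 24 h, while PRKACA lay 1.54 above it and COX7C at -1.39.

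Markers of other cell types were low in U87 or came from few genes. The glioma and mesenchymal list summed to 9160 FPKM at 24 h, against 9300 to 10800 at the other times. Neuronal markers summed to 398 FPKM at 24 h (280 to 349 at the other times), most of it the tubulin gene TUBB3, and 6 of 11 were under 1 FPKM. Astrocyte markers summed to 62.4 FPKM (46.6 to 54.0), oligodendrocyte markers to 19.1 FPKM (15.2 to 19.6) and fibroblast markers to 263 FPKM (189 to 337). Endothelial markers summed to 2.22 FPKM (1.93 to 3.5 at the other times) and lymphocyte markers to 0.757 FPKM (0.329 to 0.713), with all 6 of the latter under 1 FPKM. Microglia and macrophage markers summed to 646 FPKM at 24 h and 327 to 437 FPKM at the other times, and 11 of 12 were under 1 FPKM at 24 h. The sum is that of the lysosomal protein gene CD68, at 415, 326, 347, 645 and 436 FPKM. The part of these markers in the departures was not tested.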

How the data were processed

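RNA from U87 and DBTRG-05MG was measured by poly(A) sequencing, with 1 library per line and time and 10 libraries in all. The authors deposited 1 table of values for 20379 genes, which was read as FPKM; no label states the unit, and it was inferred from the values. Per the submitters' processing notes, the tools were RSEM, Bowtie2 and HISAT (no versions) on the build hg38. Entries of 0.002, the floor of the table, were taken as 0. Dose and times follow the labels (1 mM, 48 h at most); the series text differs from them in the unit of dose and in the length of treatment.

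Departures were computed in Python 3.11.15 with numpy 2.4.6 and pandas 2.3.3, with figures from matplotlib 3.10.9, as log2(FPKM + 1) at 24 h minus the mean of 12 h and 48 h, for genes averaging 1 FPKM or more in U87. With 1 library per group there is no test, and the scale is the same measure at the other inner times and in the other line. The pseudocount understates differences of low genes. Depth was compared through the steps of the lowest values. Transcript length and GC content came from the longest protein-coding transcript in GENCODE release 29 where there was one, and 92.73% of the genes used had both. For the adjusted departures of lists and of all genes, the median of genes in the same of 50 bins of GC content and length was subtracted from the departure. For adjusted single genes, medians from 0 h, distances and shares, the bin median was subtracted within each library instead. Promoter sequences are from RefSeq, and 9023 of 11303 genes matched. The calculation was tested on simulated data.

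The comparison and the 41 gene lists were chosen with earlier results of these data known. Genes were named by rule: the 15 furthest above and the 15 furthest below both neighbours with at least 5 FPKM in 1 of the 3 libraries, and from each list the members that departed most, at most 4. FOXM1, CCNB1, BUB3, CDK1, RPA3, TXNRD1, GCLM, FTH1, GSR, RPL28, RPS26, SNHG6, ATF4, NR4A2, PDE4B and DIO2 fall outside it and were chosen after their values were seen, as were IFI27 and GDPGP1, which mark the filter. Symbols turned into dates (25, of which 15 passed the filter) and small RNA loci were not named. Alternatives were the pseudocount, the filter, the scaling, the threshold, the weight of the neighbours and each neighbour alone. The adjustment for GC content and length and the removal of small RNA loci were chosen after seeing the data.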

Additional observations from a re-analysis of the deposited data

Results flagged for a closer look

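Of 32 gene lists with at least 10 genes tested, 17 had median departures of opposite sign in the 2 lines at 24 h. The 2 lists given here are those where both medians were at least 0.25 in size; in the other 15, such as replication genes with 0.52 in U87 and -0.09 in DBTRG-05MG, at least 1 median was smaller. Genes of the integrated stress response and amino acid supply had a median departure of -0.31 in U87 and 0.35 in DBTRG-05MG. Abundant noncoding RNAs and host genes of small nucleolar RNAs had a median of -0.69 in U87 and 0.28 in DBTRG-05MG. With 1 library per line and time, these differences between the lines were not tested.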

How the results depend on the processing

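Counts of departing genes moved with the settings. With a pseudocount of 0.1, 300 genes were at least 2-fold higher, 601 lower and 284 below both neighbours. At 1.5-fold the counts were 935 higher, 1366 lower, 420 above both and 687 below both, and at 3-fold they were 26, 59, 12 and 24. With each library adjusted for GC content and length, 203 genes were higher, 185 lower and 71 below both. With 1 neighbour left out, the higher genes numbered 189 to 581 and the lower 408 to 622. The distance to 0 h exceeded that to 12 h by 0.0659, and by 0.0396 with each library so adjusted.

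Medians of the mitotic, replication, NRF2, ribosomal, respiratory, stress response, noncoding RNA and early gene lists kept their sign in every setting run. The cAMP target median turned to -0.0139 with neighbours weighted by hours and to -0.096 without the 48 h library. Without the 48 h library the median of all genes was -0.1255. The cytokine median turned to 0.162 at a mean of 5 FPKM, 0.0277 after median centring, 0.0382 with equal totals without BCYRN1, 0.109 without the 12 h library and 0.12 when each library was adjusted for GC content and length. The glycolysis median turned to -0.0895 with weights by hours and -0.15 without the 48 h library, and that of TXNIP and its relatives to 0.101 without the 12 h library. With 1 neighbour left out, these medians spanned -0.096 to 0.331 (cAMP targets), -0.0922 to 0.109 (cytokines), -0.15 to 0.267 (glycolysis) and -0.0291 to 0.101 (TXNIP and relatives). The cause was not tested. No paired analysis was possible because each line and time has 1 library. Higher genes made up 31.7 to 52.3% of departing genes over the settings with a 2-fold threshold. Without read counts, the precision of low values is unknown.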

Other observations

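Single hypoxia-induced genes went opposite ways at 24 h in U87. BNIP3, a mitophagy receptor, stood at 66.0, 110.4, 212, 219 and 70.6 FPKM and NDRG1, a hypoxia-induced stress protein, at 48.9, 70.3, 117, 141 and 38.0 FPKM at 0, 6, 12, 24 and 48 h. For BNIP3 24 h lay 0.05 above 12 h and for NDRG1 0.27 above it, and both were lower at 48 h. INSIG2, which holds back sterol synthesis, was lowest at 24 h, at 4.70, 7.47, 10.1, 2.65 and 7.48 FPKM. Over the 28 hypoxia genes tested, 1 was at least 2-fold higher and 1 lower, against 1.57% and 2.71% of all genes. The list did not depart as a group, with a median departure of -0.08 where all genes had -0.06.

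Heat shock proteins also went opposite ways. HSPB1, a small heat shock protein, stood at 541, 399.9, 479, 933 and 419 FPKM, a departure of 1.06, whereas the mitochondrial chaperonins HSPD1 and HSPE1 stood at 172, 211, 167, 77.9 and 127 FPKM and 7.25, 11.8, 9.56, 2.21 and 6.75 FPKM, departures of -0.89 and -1.50. YAP and SRF targets had 18 of 24 departures below 0, against 55.5% of all genes, and a median of -0.31. Among them CYR61, a matricellular protein, stood at 17.1, 53.9, 35.4, 21.8 and 62.2 FPKM and ACTA2, smooth muscle actin, at 31.0, 33.9, 31.2, 14.7 and 22.7 FPKM, while the receptor kinase AXL was highest at 24 h, at 174, 127, 104, 219 and 158 FPKM. The linker histone gene H1F0 stood at 38.6, 17.5, 8.57, 51.3 and 55.8 FPKM, low at 12 h, so that its departure of 1.17 came from that library.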
